A study of Mus musculus with 5 samples.

Results

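The regions described here are the unmethylated CpG-dense tiles of the mouse autosomes in LSK cells. A tile is a 1000-base window that starts at a multiple of 1000. It was dense when 30 or more CpG cytosines in it, counted on each strand, were listed in any library, and it was tested when 3 or more of them had at least 10 reads in all 5 libraries. The level of a tile is the share of methylated reads at those shared positions, in percent. Of 24319 tested autosomal tiles, 11229 were dense, and 10847 of these had a mean of the 2 group means under 20% and are the members. The other 382 dense tiles lay at 20% or more. Because members were chosen by this level, their low level is a description and not a finding, whereas the difference between the groups was not part of the choice.

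Extended reduced representation bisulfite sequencing was run on 5 libraries of LSK cells, sorted from bone marrow as lineage-negative, Sca1-positive and Kit-positive cells, which include the stem cells and early progenitors of blood. There were 3 libraries from Idh1-R132H knock-in mice and 2 from wild-type mice, all on a mixed 129Ola x C57Bl/6J background, and the labels give no age, sex or Cre driver. The labels do not say whether libraries came from separate animals, so p-values measure the spread between libraries, which may be technical. Any cell type mixture within the sort is averaged in each library.

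CpG islands are stretches rich in CpG, often at gene starts, that most cells keep free of cytosine methylation. DNMT enzymes add methyl groups, UHRF1 brings DNMT1 to newly copied DNA, and TET enzymes oxidise methylcytosine, a step towards its removal. The R132H form of IDH1 makes 2-hydroxyglutarate, which inhibits enzymes such as the TETs that need 2-oxoglutarate. Bisulfite leaves methylcytosine to be read as C and turns unmodified cytosine to T, and it does not tell hydroxymethylcytosine, a TET product, from methylcytosine.

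The promoters below show what such tiles look like around gene starts and what departs from that. Each runs 5′ to 3′ on the gene's strand from 250 bases before to 50 after the start, is credited to RefSeq (GRCm38.p6), and was placed on the mm9 positions of the files by the spacing of its CpGs. Capitals mark CpGs that were read at 10 or more reads in all 5 libraries. Uhrf1 and Tet2 belong to the methylation machinery, Zfpm1 (a GATA1 cofactor) to the blood regulators, and Lbr (the lamin B receptor of the inner nuclear membrane) had the smallest tile-test p among members above wild-type. Tlcd4 and Snx11 (a sorting nexin, of a family that binds membrane lipids) start in tiles with wide differences between libraries. Lines give the gene, the mm9 window and its strand.
Tet2 chr3:133207305-133207604, minus strand: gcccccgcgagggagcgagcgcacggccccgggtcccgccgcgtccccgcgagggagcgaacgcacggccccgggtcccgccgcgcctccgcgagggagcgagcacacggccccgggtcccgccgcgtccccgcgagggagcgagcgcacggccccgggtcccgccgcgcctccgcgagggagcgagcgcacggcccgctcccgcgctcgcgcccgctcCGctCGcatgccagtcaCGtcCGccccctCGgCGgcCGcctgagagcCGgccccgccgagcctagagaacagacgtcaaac
Uhrf1 chr17:56443486-56443785, plus strand: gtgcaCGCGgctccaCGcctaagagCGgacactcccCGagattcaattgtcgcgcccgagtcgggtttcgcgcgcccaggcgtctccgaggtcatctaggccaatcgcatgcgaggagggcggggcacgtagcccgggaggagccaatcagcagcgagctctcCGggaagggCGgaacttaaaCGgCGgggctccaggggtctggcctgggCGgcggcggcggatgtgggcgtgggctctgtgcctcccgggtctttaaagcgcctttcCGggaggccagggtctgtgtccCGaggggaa
Zfpm1 chr8:124805791-124806090, plus strand: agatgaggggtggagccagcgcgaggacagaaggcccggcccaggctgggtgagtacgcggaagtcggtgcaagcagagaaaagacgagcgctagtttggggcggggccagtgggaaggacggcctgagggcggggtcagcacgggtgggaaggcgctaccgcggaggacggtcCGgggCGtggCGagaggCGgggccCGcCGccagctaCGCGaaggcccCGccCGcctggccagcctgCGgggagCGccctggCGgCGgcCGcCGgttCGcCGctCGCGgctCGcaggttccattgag
Lbr chr1:183772483-183772782, minus strand: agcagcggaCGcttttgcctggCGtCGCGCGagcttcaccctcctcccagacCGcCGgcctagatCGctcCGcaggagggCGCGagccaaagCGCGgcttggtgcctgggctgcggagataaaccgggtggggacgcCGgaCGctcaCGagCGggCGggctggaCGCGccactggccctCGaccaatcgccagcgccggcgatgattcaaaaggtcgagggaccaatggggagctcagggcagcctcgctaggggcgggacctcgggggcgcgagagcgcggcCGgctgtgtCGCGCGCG
Tlcd4 chr3:120966209-120966508, minus strand: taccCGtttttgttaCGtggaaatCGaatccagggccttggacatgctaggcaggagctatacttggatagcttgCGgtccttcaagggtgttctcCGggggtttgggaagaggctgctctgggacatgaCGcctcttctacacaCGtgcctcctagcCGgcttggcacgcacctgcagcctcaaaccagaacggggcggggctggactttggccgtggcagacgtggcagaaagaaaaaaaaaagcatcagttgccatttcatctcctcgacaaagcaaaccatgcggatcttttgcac
Snx11 chr11:96638820-96639119, minus strand: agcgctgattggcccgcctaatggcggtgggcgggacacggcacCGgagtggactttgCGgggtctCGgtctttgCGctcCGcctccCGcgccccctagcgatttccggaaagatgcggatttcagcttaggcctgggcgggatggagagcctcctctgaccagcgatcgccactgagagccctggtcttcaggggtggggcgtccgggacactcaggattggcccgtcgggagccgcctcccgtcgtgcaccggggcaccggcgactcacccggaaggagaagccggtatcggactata

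In the Tet2 window no methylated read was found at 8 shared positions, where the Idh1-R132H libraries had 492, 118 and 906 reads and the wild-type libraries 94 and 259. A count of 0 in the shallowest of these, wild-type replicate 1, allows a level of up to 3.19%. Counting limits here and below cover counting error only, since several PCR copies of 1 molecule can be read. Uhrf1 had 1 methylated read in 1425 in Idh1-R132H replicate 3 and none in the other 4 libraries. Zfpm1 stood at 0.385%, 0% and 0% in the knock-in libraries and at 0% and 0.165% in wild-type. The Tlcd4 window was of another kind, at 17.99%, 42.3% and 28.7% in knock-in and 14.4% and 15.7% in wild-type.

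The members held between 73.3% and 76.4% of the reads of all tested tiles in each library. Depth differed between libraries, the median member tile having 928, 390 and 1991 reads in Idh1-R132H replicates 1, 2 and 3, against 271 and 552 in the wild-type libraries. On 159 dense chromosome X tiles, which are not members, 2 libraries stood apart: Idh1-R132H replicate 2 at 24.1% and wild-type replicate 1 at 24.1%, against 2.94% and 3.82% in Idh1-R132H replicates 1 and 3 and 3.65% in wild-type replicate 2. Each group holds at least 1 library of each kind, so the members' difference is given below within each kind as well. On 27 positions of mitochondrial DNA, which carries little CpG methylation, the level was 0.143%, 0.0363% and 0.0431% in knock-in and 0.198% and 0.0946% in wild-type.

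The typical member tile was free of methylated reads or nearly so in every library. Across members 81.4% had a mean level under 1%, and 11.98% had no methylated read in any of the 5 libraries. Of the 182544 shared CpG positions in members, 70.7% were read as unmethylated only, in all libraries, and 0.676% had a mean level of 20% or more. A small minority of positions was methylated inside an otherwise unmethylated tile: 162 positions at 50% or more, in 95 tiles.

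The mean level of a member tile was above both wild-type libraries in all 3 knock-in libraries, by less than 1 percentage point and without reaching significance. It was 1.08%, 1.09% and 0.865% in Idh1-R132H replicates 1, 2 and 3, against 0.686% and 0.805% in wild-type replicates 1 and 2. No knock-in library fell within the wild-type range, although Idh1-R132H replicate 3 lay only just above wild-type replicate 2. The group means were 1.01% ± 0.126 (SD, n = 3) and 0.745% ± 0.0842 (SD, n = 2), a difference of 0.266 percentage points (exact 2-sided permutation p = 0.2 over 10 divisions of the libraries, where the smallest possible p is 0.1). The design therefore cannot reach 0.05. Between the 2 libraries that were high on chromosome X the difference was 0.403 points, and between the other 3 it was 0.167 points, in the same direction.

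Weighting by reads instead of by tiles gave no such order. The read-weighted level was 2.54%, 2.57% and 3.32% in knock-in and 1.65% and 3.99% in wild-type, with wild-type replicates at both ends of the order, and the groups differed by -0.0143 points (exact 2-sided permutation p = 1). The 10 members with the most reads held 12.6%, 11.2% and 14.7% of all member reads in knock-in and 9.51% and 16.5% in wild-type, at mean levels of 13.3%, 15.7% and 18.5% in knock-in and 12.05% and 20.2% in wild-type. Without them the read-weighted level was 0.916%, 0.887% and 0.707% in knock-in and 0.581% and 0.640% in wild-type, so the groups again did not overlap.

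Those deep tiles include the longest unbroken run of members, chr17:39980000-39985999, with 6 tiles in a row and no gene start placed in it. Its tile at 39982000 had 180 shared positions, more than any other member, and levels of 12.8%, 15.8% and 17.4% in knock-in and 12.4% and 20.6% in wild-type. It had 580997, 167847 and 1062345 reads in knock-in and 81980 and 380042 in wild-type. The median member tile had 928, 390 and 1991 in knock-in and 271 and 552 in wild-type. Whether reads from several copies of repeated DNA were counted in this run was not tested, so its levels may not be those of 1 locus. In each of the 6 tiles wild-type replicate 1 was the lowest library and wild-type replicate 2 the highest.

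Members were not uniform in their share of methylation. Library by library, 40.1%, 67.6% and 28.0% of members stood at exactly 0% in knock-in and 73.2% and 48.4% in wild-type, an order that follows depth. After thinning every position to 10 reads, the shares were 62.6%, 75.5% and 67.6% in knock-in and 78.3% and 69.2% in wild-type, and the groups overlapped. The upper end was ordered otherwise: 5.42%, 6.64% and 4.35% of members exceeded 5% in knock-in, against 3.94% and 4.03% in wild-type. Counted in each library by itself, whatever the others showed, members above 20% numbered 43, 79 and 26 in knock-in and 24 and 24 in wild-type.

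**Figure D1:**
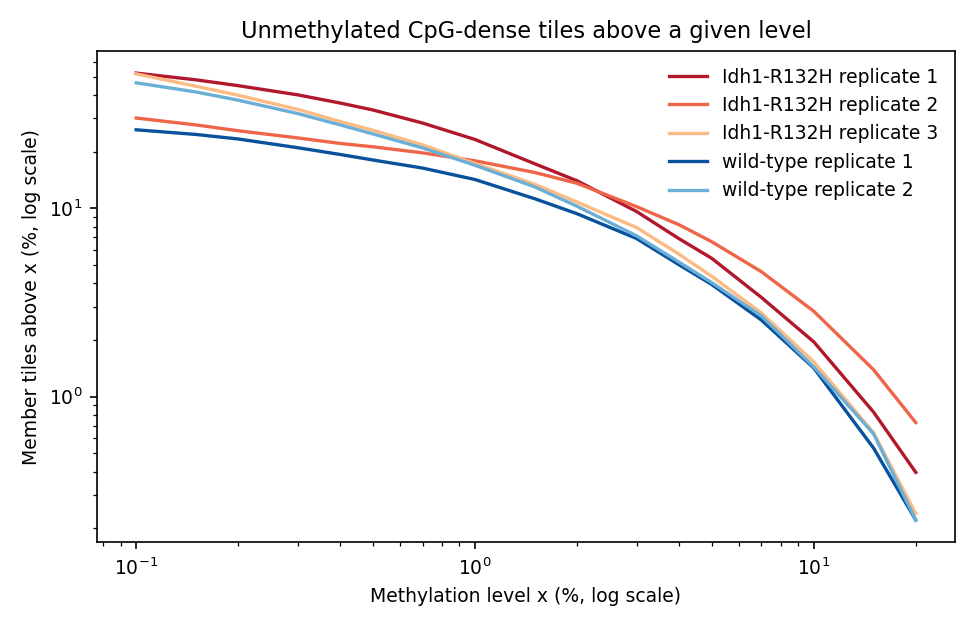
Share of the 10847 member tiles (%, log scale) with a methylation level above the value on the x axis (%, log scale), 1 line per library. Idh1-R132H replicates 1 and 2 lie above the other libraries at high levels, where 79 members exceed 20% in Idh1-R132H replicate 2 against 24 in each wild-type library, and the 2 shallowest libraries lie lowest at the left.

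The difference between groups was spread over levels but weighted to the higher ones. The 7830 members with mean level under 0.5% averaged 0.230%, 0.0933% and 0.146% in knock-in and 0.0555% and 0.117% in wild-type, and the groups overlapped. The 463 members at 5% or more averaged 10.5% ± 1.34 in knock-in and 8.34% ± 0.719 in wild-type (SD over 3 and 2 libraries). These 463 tiles, 4.27% of members, carried 34.2% of the summed difference, while the lowest class, 7830 tiles, carried 19.1%. The 108 members with the widest differences carried 22.3%, and without them the mean difference was 0.209 points. A higher class of mean level leaves more room for a difference in points, and the levels used to form the classes include the libraries compared.

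**Figure D2:**
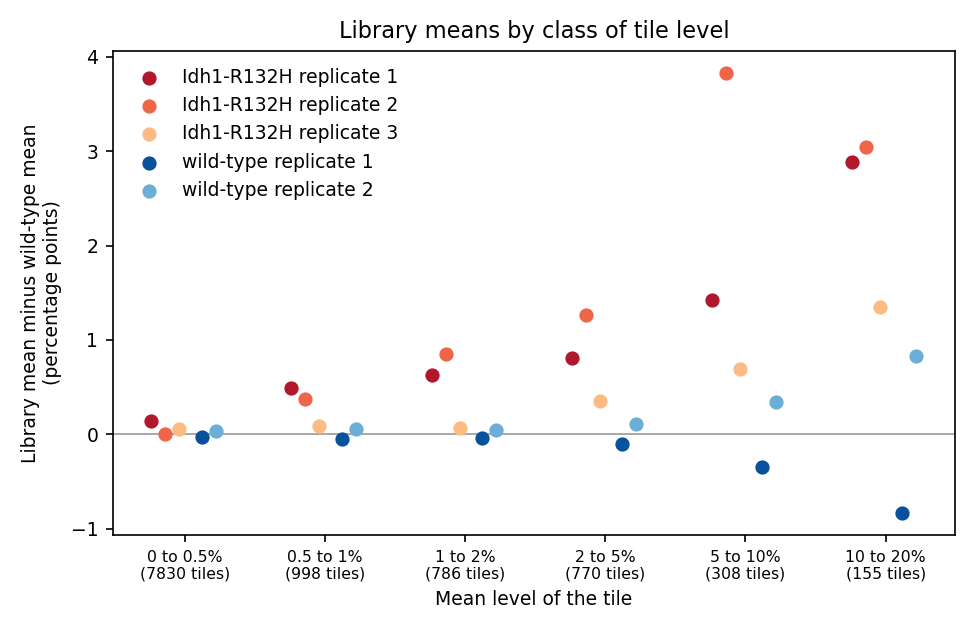
Mean level of each library minus the wild-type mean (percentage points) for 6 classes of mean tile level, 1 point per library. The knock-in points lie above both wild-type points in every class but the lowest, and Idh1-R132H replicate 3 is the closest to wild-type from 0.5% upwards.

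Tiles with more CpGs stood lower in every library. Members with 30 to 49 listed positions (4040 tiles) averaged 1.32% ± 0.168 in knock-in and 0.929% ± 0.132 in wild-type. Those with 80 or more (2896 tiles) averaged 0.741% ± 0.0989 in knock-in and 0.565% ± 0.0382 in wild-type (SD, n = 3 and n = 2). The forward and reverse strands gave close values, 0.948% and 0.954% in knock-in and 0.712% and 0.738% in wild-type.

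On each of the 19 autosomes the knock-in mean of the members exceeded the wild-type mean, by between 0.172 and 0.379 points. On 17 of them every knock-in library exceeded both wild-type libraries, the exceptions being chromosomes 12 and 17, where wild-type replicate 2 reached above Idh1-R132H replicate 3. The chromosomes share the same 5 libraries and are not independent of each other. On chromosome 1, which holds Idh1, members averaged 0.808% in knock-in and 0.629% in wild-type, and chromosome 10 had the smallest difference.

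The rule took levels from shared positions only, while every listed position counted towards density. The libraries with the most listed positions were Idh1-R132H replicates 1 and 3 and wild-type replicate 2. Levels at positions of member tiles that were read in these libraries, but not in all 5, were not used by the rule. There were 255270 such positions in 10710 tiles, of which 10551 held 3 or more. Each of these positions counted once in the level of its tile. Over the 10551 tiles the mean tile level was 1.46% in Idh1-R132H replicate 1, 1.26% in Idh1-R132H replicate 3 and 1.20% in wild-type replicate 2. The difference was 0.164 points, beside 0.165 points at the shared positions of the same tiles and libraries. At the shared positions the tile level is the share of methylated reads, so the 2 measures are not the same. It was 0.0633 points with Idh1-R132H replicate 3 alone and 0.264 points with Idh1-R132H replicate 1 alone, and with 1 wild-type library there is no test. At these positions 91 tiles, 0.862%, stood above 20%.

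Among 7239 gene starts placed by CpG spacing, 5872 fell in tested tiles and 5273 of these in members, 89.8%. They belong to 4738 genes and lie in 4290 member tiles, 39.6% of members, of which 538 hold starts of genes on opposite strands. Placement needed at least 10 listed CpGs within the 300-base promoter, which favours dense tiles, so these shares are a description. The same holds below where listed genes are said to start in members. Members with a placed start averaged 0.588% ± 0.111 in knock-in and 0.419% ± 0.0436 in wild-type. The 6237 members without one, on the same 18 chromosomes, averaged 1.31% ± 0.140 in knock-in and 0.976% ± 0.111 in wild-type, and those with an opposite-strand pair 0.344% ± 0.0601 in knock-in and 0.244% ± 0.0207 in wild-type (SD, n = 3 and n = 2 throughout). A tile without a placed start may still hold a gene start, because 13800 of the 31396 autosomal promoters in the RefSeq table had enough CpGs to be searched and not all of those could be placed. Promoters of chromosome 18, which has 320 members, were not analysed here, and its members are in neither set. Median listed positions were 65 in members with a placed start and 53 in those without one on the same 18 chromosomes. Members with an opposite-strand pair had 70. Denser tiles stood lower, and how far density accounts for the levels of these sets was not tested.

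Along the members the level was lowest at the start itself. Between 200 bases before and the start, CpGs averaged 0.467%, 0.454% and 0.302% in knock-in and 0.297% and 0.288% in wild-type. At 800 to 1000 bases downstream they averaged 2.20%, 2.44% and 1.92% in knock-in and 1.50% and 1.79% in wild-type, and a similar level was seen upstream at that distance. Every knock-in library exceeded both wild-type libraries in 9 of 10 distance bins, the exception being 600 to 400 bases upstream. Of the members at 5% or more, 77 hold a placed start, and in 34 of them 3 or more shared positions lie within the 300-base promoter and 3 or more outside it. The promoter was lower than the rest of the tile in 21 of those 34, with median levels of 4.88% in the promoter and 8.23% outside it.

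**Figure D3:**
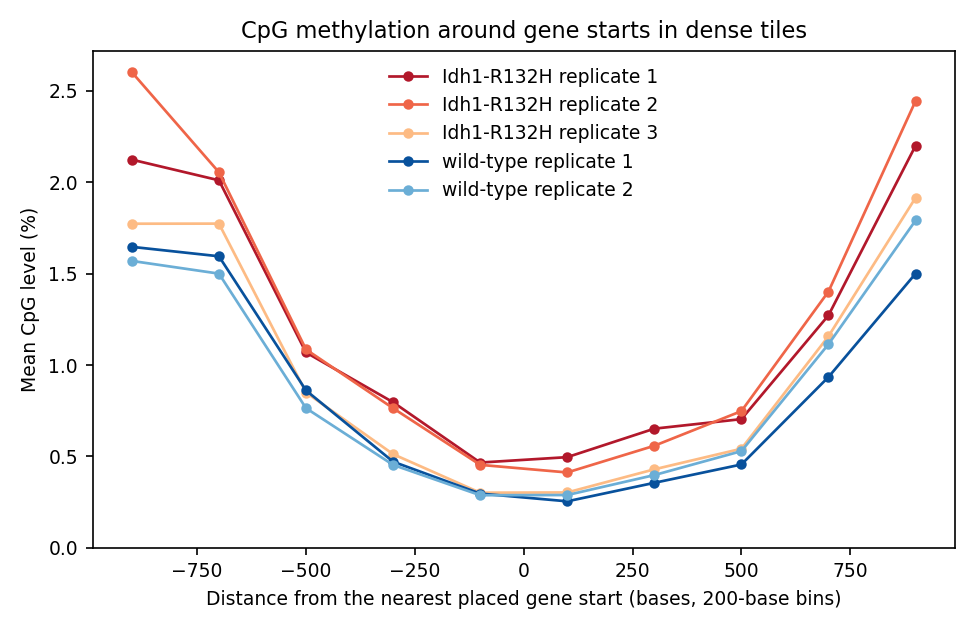
Mean level of shared CpG positions (%) in member tiles against distance from the nearest placed gene start (bases, 200-base bins), 1 line per library. All 5 libraries are lowest at the start, and the levels rise on both sides to between 1.50% and 2.60% at 800 to 1000 bases.

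The promoters that start in members had a median GC content of 68.3% and 30 CpGs in 300 bases, against 53% and 7 over all 31396 promoters of the RefSeq table on the autosomes other than chromosome 18 and 63% and 23 over the 13800 with 10 or more CpGs. CCGG, the MspI site that the library method cuts, was found in 99.8% of them on either strand, against 53.5% of all promoters and 88.9% of those with 10 or more CpGs. GGGCGG, which can share bases with CCGG, was in 82.2%, against 36.0% and 69.8%, and TATAAA was in 3.38%, against 13.6% and 5.59%. Density chose the members, and placement needed CpGs listed in libraries cut at CCGG, while the comparison sets were not chosen by listed CpGs. The GC content, CpG number and motif shares are therefore descriptions, and a motif match is not a site of binding.

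Of the 11 genes listed for the DNA methylation machinery, 9 could be placed. Of these, 7 lay in tested tiles, and all 7 start in members, 8 tiles in all. The median of their tile levels was 0.0512%, beside 0.115% over all members with a placed start. Both lie within the span of the libraries' mitochondrial levels, 0.0363% to 0.198%, so little can be read from levels this low. The Dnmt3a tile at chr12:3807000-3807999, with 37 shared positions, stood at 0.0419%, 0% and 0.141% in knock-in and 0% and 0.0554% in wild-type, so the groups overlapped. Dnmt3a is a de novo methyltransferase, while Tet3, an oxidising enzyme, had the highest level of the list, 2.36%, 1.78% and 0.664% in knock-in and 1.57% and 0.169% in wild-type. In none of the 8 tiles were the groups apart. The tile of Idh2, which encodes the mitochondrial isocitrate dehydrogenase, had methylated reads in Idh1-R132H replicate 2 alone, at 0.348%.

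Of 22 regulators of blood stem and progenitor cells, 6 could be placed. Of these, 5 lay in tested tiles, and all 5 start in members, 6 tiles with a median level of 0.336%. Ikzf1, a lymphoid transcription factor, stood at 0.726%, 0.840% and 0.626% in knock-in and 0% in both wild-type libraries, and was the 1 member of the list whose groups did not overlap with knock-in higher. Hlf, a transcription factor of stem cells, was the 1 tile of the list with every knock-in library below wild-type, at 0.0835%, 0% and 0.277% in knock-in and 0.707% and 0.385% in wild-type. Over all members 7.15% had every knock-in library above wild-type and 2.76% below, and over all tested tiles 8.98% and 3.61%. Each gene list here holds too few tiles to be compared with these shares. Of the 2 Gata2 tiles, the one at chr6:88148000-88148999 stood at 1.04%, 5.42% and 3.27% in knock-in and 1.26% and 1.55% in wild-type, so the groups overlapped.

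Polycomb targets of development had the highest median of the lists, 1.49%. It rests on 4 tiles of 3 genes, since 6 of the 22 could be placed and 4 lay in tested tiles. The 2 Pax2 tiles, adjacent on chromosome 19, had every knock-in library above both wild-type libraries, as had 7.15% of all members and 8.98% of all tested tiles. In chr19:44830000-44830999 the levels were 2.34%, 2.72% and 1.64% in knock-in and 0% and 1.49% in wild-type. In the other tile Idh1-R132H replicate 3 and wild-type replicate 2 were both at 1.66%, to 3 digits. Pax2 is a transcription factor of kidney and brain development. Pax6 and Foxa2 tiles overlapped between groups, and Foxd3 starts in a tested tile that was not dense. Of 16 tumour suppressors whose promoters gain methylation in cancer, 6 could be placed and 5 lay in tested tiles. All 5 start in members, with a median of 0.331% and no tile apart. Cdkn2a, an inhibitor of cell cycle kinases, stood at 2.92%, 0% and 2.02% in knock-in and 0% and 1.83% in wild-type, and Dapk1, a death-associated kinase, at 3.87%, 0.127% and 0.804% in knock-in and 0.194% and 0.705% in wild-type. Cdkn2b, another inhibitor of cell cycle kinases, went the other way in its group means, at 0.2004%, 0% and 0.415% in knock-in and 0.389% and 0.523% in wild-type, and its groups overlapped. Chfr and Socs1 had no methylated read in any library, and of the 15 housekeeping genes 4 could be placed, 0 of them in a tested tile.

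Tile by tile, no member passed an adjusted p of 0.05 in edgeR's quasi-likelihood test with Benjamini-Hochberg adjustment over all 24319 tiles, and neither did any other tested tile. The edgeR fit itself covered the 22029 tiles with both methylated and unmethylated reads, and the rest could not be called. Among these are the 1300 members without a methylated read in any library, which stay in the shares below. At an unadjusted p under 0.05 edgeR gave 92 members higher and 101 lower in knock-in, 0.848% and 0.931% of members, beside 0.843% and 0.748% of all tested tiles. With limma, too, 0 members passed in each of 3 versions. Unadjusted, limma gave 273 members higher and 100 lower on arcsine levels (2.52% and 0.922%, beside 2.66% and 1.22% of all tiles), and 78 higher and 186 lower on log2 ratios (0.719% and 1.71%, beside 2.55% and 1.41%). After centring each library it gave 64 higher and 86 lower (0.59% and 0.793%, beside 2.1% and 1.57%). The members' shares were near or below those of all tiles, except for tiles lower on log2 ratios and in edgeR. Ties between libraries were found in 72.8% of members, beside 57.0% of all tested tiles. With 5 libraries the test can miss even large differences where libraries vary widely, so the absence of calls does not show that levels were alike.

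In 776 members every knock-in library exceeded both wild-type libraries, 7.15%, beside 8.98% of all tested tiles, and in 299 every knock-in library lay below both, 2.76%, beside 3.61%. A tile with a wild-type library at 0% cannot count as lower, and one with a knock-in library at 0% cannot count as higher. Wild-type replicate 1 stood at 0% in 73.2% of members and Idh1-R132H replicate 2 in 67.6%, so depth limits these counts. With group means at least 1 point apart the counts were 370 higher and 130 lower, 3.41% and 1.2% of members beside 7.23% and 2.85% of all tiles. At 5 points they were 85 and 18 (0.784% and 0.166%, beside 4.84% and 1.66%), and at 10 points 25 and 5 (0.23% and 0.0461%, beside 2.37% and 0.621%). Members were chosen for a low level, and 81.4% had a mean level under 1%. The rule itself thus leaves them little room for gaps of this size, and their lower shares are not a result. Without wild-type replicate 1 the order of the members' counts turned round for any distance, 1100 higher and 1780 lower (10.1% and 16.4%), beside 16.8% higher and 13.9% lower of all tested tiles. At 1 point or more it was 525 higher and 411 lower (4.84% and 3.79%, beside 14.2% and 7.05%). Without wild-type replicate 2 the counts were 1600 higher and 1177 lower (14.8% and 10.9%, beside 20.6% and 12.6%).

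**Figure D4:**
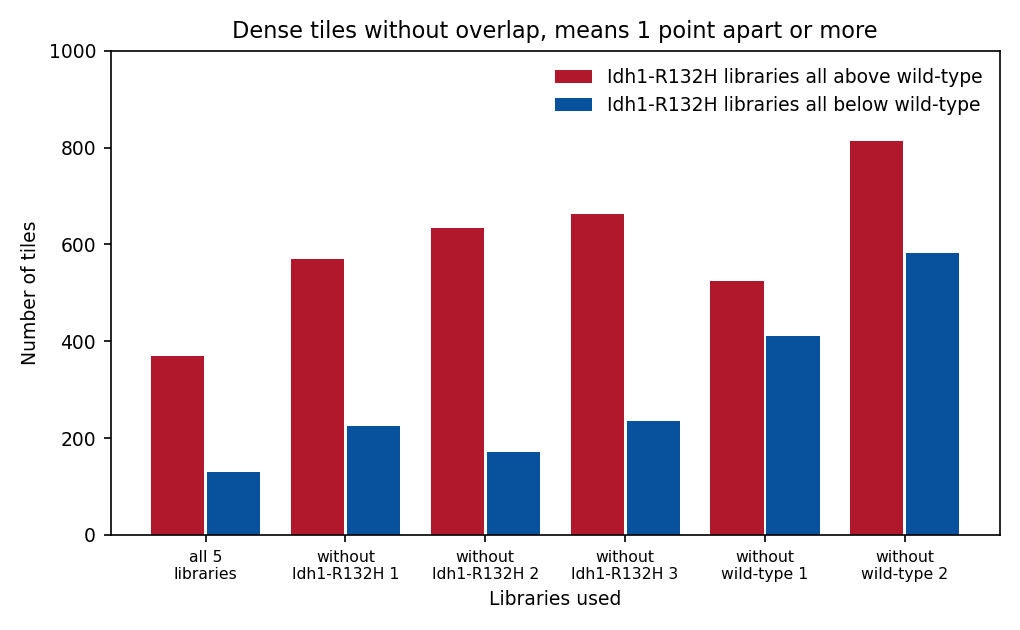
Number of member tiles in which every knock-in library lies above both wild-type libraries (red) or below both (blue), with group means at least 1 percentage point apart, for all 5 libraries and with each library left out. All 5 libraries give 370 higher and 130 lower, and the excess is smallest without wild-type replicate 1, at 525 higher and 411 lower.

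Among members with 10 or more shared positions and no overlap between groups, the widest difference was at chr2:152549000-152549999, 12.4%, 25.8% and 10.4% in knock-in against 0% and 4.93% in wild-type. No gene start was placed in that tile, and the nearest placed one is 36116 bases away. The tile at chr8:73904000-73904999, which ends 852 bases from the start of Nr2f6, an orphan nuclear receptor, stood at 18.7%, 27.8% and 20.1% in knock-in and 4.15% and 13.2% in wild-type. The Tlcd4 tile stood at 14.7%, 33.2% and 18.7% in knock-in and 10.4% and 11.1% in wild-type, and without Idh1-R132H replicate 2 its difference of 11.5 points was 5.96 points. The tile at chr7:148668000-148668999, with 35 shared positions, stood at 24.7%, 23.9% and 21.6% in knock-in and 12.1% and 13.1% in wild-type, and had the smallest SD between knock-in libraries of the 5 widest. None of these passed the test (edgeR adjusted p = 1 in every named member).

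In the Tlcd4 promoter the methylation sat at the far end of the window, at the first CpGs printed. The CpG 235 bases before the start was at 100%, 43.9% and 90.7% in knock-in and 10.0% and 58.8% in wild-type, on 17, 41 and 151 reads in knock-in and 10 and 17 in wild-type. The CpG next to it, 226 bases before the start, was at 81.3%, 85.4% and 40.7% in knock-in and 100% and 52.9% in wild-type, so wild-type replicate 1 was the lowest library at the first and the highest at the second. At 104 bases before the start no library had a methylated read. The Snx11 promoter was read as unmethylated at all 6 shared CpGs, which lie in the tile beyond the one that holds the start, whereas the tile of the start rests on 4 positions and stood at 39.8%, 27.5% and 14.3% in knock-in and 0% and 8.13% in wild-type. Its CpG at 862 bases into the gene was at 61.0%, 78.6% and 31.1% in knock-in and 0% and 25.0% in wild-type, and it lies far outside the promoter window.

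**Figure D5:**
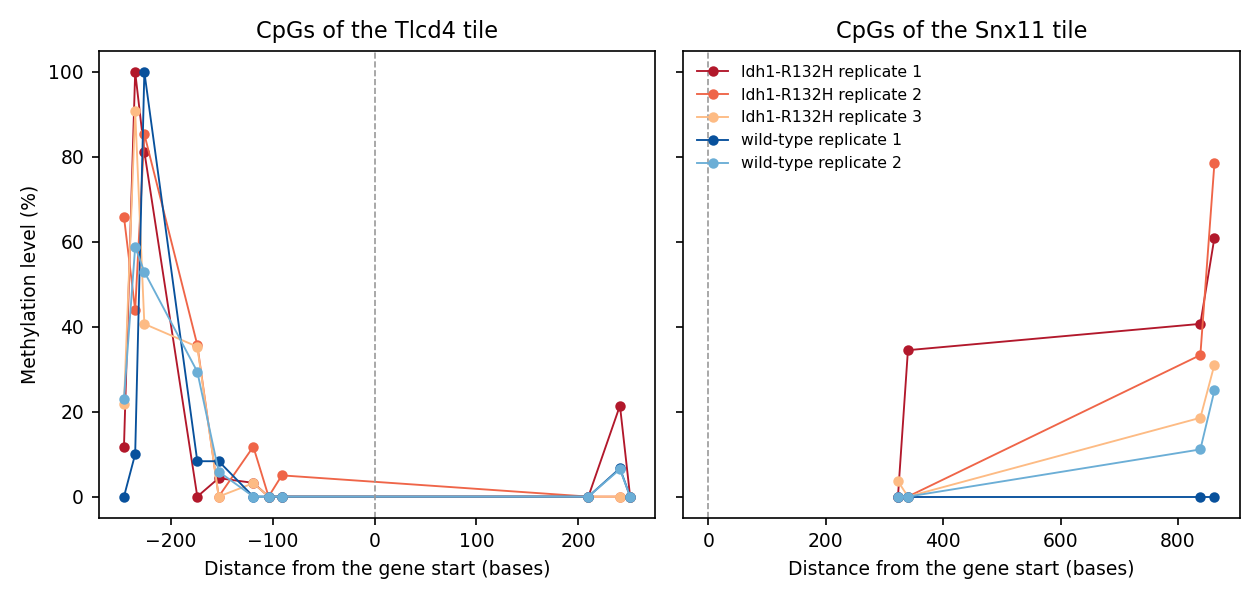
Methylation level (%) of each shared CpG against its distance from the gene start (bases) in the Tlcd4 tile (left) and the Snx11 tile (right), 1 line per library and a dashed line at the start. In Tlcd4 all libraries are at 0% at 104 bases before the start, and the highest CpG of each lies 226 or 235 bases before it, and in Snx11 the knock-in libraries are highest at 862 bases into the gene, at 61.0%, 78.6% and 31.1%.

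Lower in knock-in, the widest was chr8:11009000-11009999, which lies 71 bases from the start of Irs2, an adaptor of the insulin receptor. It stood at 0%, 0% and 0.0347% in knock-in and 21.7% and 0.176% in wild-type, so wild-type replicate 1 alone sets it: without it the difference is -0.164 points. In chr4:133574000-133574999, the smallest p in this direction, the levels were 0% in all knock-in libraries against 7.82% and 2.15% in wild-type (edgeR unadjusted p = 0.000945, adjusted p = 1). That tile rests on 6 shared positions, with 130 reads in Idh1-R132H replicate 2. A count of 0 there allows a level above that of wild-type replicate 2.

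Among members with the smallest p in the higher direction, the Lbr tile was at 0.117%, 1.48% and 0.111% in knock-in and 0% in both wild-type libraries (edgeR unadjusted p = 0.00165, adjusted p = 1). In Idh1-R132H replicate 2 the methylated reads sat at 3 CpGs 232, 239 and 248 bases after the start, with 12 of 37, 12 of 37 and 12 of 36 reads methylated. The CpG between them on the same strand, 244 bases after the start, had 0 of 37, and the promoter window above had none in that library. The Creb1 tile, at the start of a cyclic AMP-responsive transcription factor, was at 0.713%, 0.738% and 0.165% in knock-in and 0% in both wild-type libraries. The wild-type libraries had 861 and 2336 reads there, and 2250 and 4067 in the Lbr tile. In both tiles a count of 0 in wild-type replicate 1 allows a level above that of Idh1-R132H replicate 3. The tile at chr2:30581000-30581999, with 8 shared positions, was at 15.5%, 34.7% and 6.97% in knock-in and 0% and 1.26% in wild-type, so every knock-in library lay above wild-type.

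Libraries ranged widest within the tiles at chr17:32250000-32250999 and chr12:3235000-3235999, beside the Snx11 tile. The first, on 3 shared positions, stood at 25.5%, 46.7% and 18.2% in knock-in and 5.13% and 13.8% in wild-type, and the other at 43.7%, 6.32% and 11.4% in knock-in and 3.30% and 23.9% in wild-type, where the groups overlapped. Positions within a tile ranged widest at chr3:124024000-124024999, 45 bases from the start of Tram1l1, where shared CpGs had mean levels between 0% and 99.8%. That tile stood at 4.99%, 8.06% and 13.7% in knock-in and 23.5% and 9.61% in wild-type.

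Near the limit of the rule, the members closest under 20% had a mean of the 2 group means of 19.98%, 19.97% and 19.92%, and the dense tiles closest above it 20.09%, 20.11% and 20.14%. Of these, chr6:124695000-124695999, just inside, stood at 27.2%, 28.5% and 20.6% in knock-in and 13.1% and 16.0% in wild-type, while chr12:88223000-88223999, just outside, stood at 21.1%, 55.4% and 18.2% in knock-in and 6.15% and 11.1% in wild-type.

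Of the runs of adjacent members, 6968 were single tiles, 1670 were pairs and 157 held 3 tiles, while 13 held 4, 2 held 5 and 1 held 6. Tiles inside a run (193) averaged 1.66% ± 0.0585 in knock-in and 1.46% ± 0.221 in wild-type, and tiles at the end of a run (3686) 1.01% ± 0.109 in knock-in and 0.752% ± 0.0730 in wild-type (SD, n = 3 and n = 2). End minus inside averaged -0.678 points over libraries and was negative in each, and without the 10 deepest members it was -0.357. The groups differed in it by 0.0573 points (exact 2-sided permutation p = 0.7).

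In the rest of the series, tiles with fewer than 30 listed positions and a mean level under 20% (4617 tiles) averaged 2.75% ± 0.440 in knock-in and 1.96% ± 0.227 in wild-type, and the 382 dense tiles at 20% or more averaged 70.6% ± 2.13 in knock-in and 67.6% ± 0.157 in wild-type (SD, n = 3 and n = 2). Whether these differences differ from the members' was not tested.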

How the data were processed

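The authors deposited 1 table per library. Per the file headers, a row holds a CpG's chromosome, position, strand, coverage and frequency of C and T. The deposited coverage column holds read counts, all 10 or more, and the deposited C and T columns hold percent of reads. Per the submitters' processing notes, CASAVA 1.7, Bismark and mm9 were used; the Bismark version and any duplicate removal are not given in the sources used here. Multiplying coverage by the percent of C or T gave methylated and unmethylated reads, whole at 100% of positions within the rounding of the deposited percentages.

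Replicates were numbered in accession order. Tile counts were tested with edgeR 4.0.16 (quasi-likelihood, a term per library, 3 residual degrees of freedom, all 5 libraries) with Benjamini-Hochberg adjustment, and with limma 3.58.1 as an alternative, in R 4.3.3. Group means of libraries were compared by exact permutation. Scripts were tested on simulated data. There the tile test called large shifts when libraries varied little beyond read sampling, a setting added after a first run with wider variation called none, so 0 calls do not show that tiles did not differ. The members and gene lists were chosen with earlier results of these data known.

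Gene starts were placed by matching the spacing of a promoter's CpGs (10 or more, at least 50% of them listed) to listed positions on the same chromosome. Of 13800 promoters searched, 7239 were placed at 1 site, only 5 were placed when their CpGs were read in reverse order as a check, and 7208 of 7208 neighbouring pairs kept their order. Tiles were named by rules: the 5 widest differences each way with 10 or more shared positions and no overlap, the 5 smallest p each way, the 3 with the most positions, the 3 nearest the limit on each side, and the 3 widest ranges of libraries and of positions. Genes of lists are those with the most shared positions (such as Zfpm1, Ikzf1, Dnmt3a, Tet3, Pax2, Cdkn2a, Cdkn2b and Dapk1), whereas Tet2, Uhrf1, Idh2, Gata2, Hlf, Pax6, Foxa2, Foxd3, Chfr, Socs1 and the 10 deepest tiles were chosen after their values were seen. Alternatives changed coverage, thinning, density, the level limit, weighting and the library left out.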

Additional observations from a re-analysis of the deposited data

How the results depend on the processing

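The mean difference of members, knock-in minus wild-type, kept its direction under 15 settings and was -0.0143 points when weighted by reads, the 1 setting that reversed it. Leaving out each library gave 0.206 to 0.339 points. At positions whose levels the rule did not use, leaving out each knock-in library read there gave 0.0633 to 0.264 points. The tile test called 0 members without each knock-in library, at a coverage minimum of 20 reads, and with reads thinned to 10. Each version of limma also called 0. Limits on shared positions, listed positions and mean level only took members from the main fit, so their 0 was fixed in advance. Leaving out a wild-type library left 1 in that group, so no calls are given for it. At edgeR unadjusted p under 0.05, counts without each knock-in library ran from 45 to 79 of 10847 members higher and 24 to 90 lower. The shares over all tested tiles were not taken for these fits, so nothing is read from the counts. The share of members without overlap between groups ran, without each library, from 10.1% to 21.2% higher and 3.91% to 16.4% lower, beside 13.6% to 20.6% and 6.02% to 13.9% of all tested tiles. It was 4.77% higher at a coverage minimum of 20 reads (6.15% of all tiles), and 2.96% higher and 1.46% lower with reads thinned to 10 (5.49% and 2.07% of all tiles). With means at least 1, 5 and 10 points apart it was 3.41%, 0.784% and 0.230% higher and 1.20%, 0.166% and 0.0461% lower, by construction fewer. End minus inside tiles was -0.717 to -0.643 points without each library, -1.22 at a coverage minimum of 20 reads, -0.851 with 10 or more shared positions, -0.872 with 50 or more listed positions, -0.250 for members under 10% and -0.357 without the 10 deepest members, the last chosen after seeing the data, as were the read-weighted value without those tiles and the splits by chromosome X level. Its difference between groups ran from -0.0473 to 0.162 without each library, and was -0.0505 with thinned reads and -0.0150 with 50 or more listed positions, so it has no stable sign. The causes of these shifts were not tested. No paired analysis was possible because the labels give no replicate numbers that groups share. Depth limits low levels: at 10 reads a position, 1 methylated read is the smallest step, and the shallowest library, wild-type replicate 1, had a median of 19 reads at shared positions.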
